A study of Homo sapiens with 6 samples.

Results

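ID1, ID2, ID3, ID4, SMAD6, SMAD7, SMAD3, CRIM1, BAMBI and BMP4 are 10 genes of the BMP and TGF-beta response, and they were followed in A549 cells after knockdown of MRPL35. They were taken by symbol: every probe set whose platform annotation gives exactly 1 gene symbol, equal to one of the 10, was used. All 10 were measured, of 18244 genes in all, through 27 of the 49293 probe sets that are not controls. A549 is an established human lung adenocarcinoma line. The KD group (3 arrays) received a lentivirus with the hairpin shMRPL35 and the NC group (3 arrays) a lentivirus with the control hairpin shctrl, so both carry a lentiviral insert. Time after transduction, selection, clonality and the number of hairpins are not given in the sources used here. MRPL35 is a mitochondrial ribosomal protein.

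BMP and TGF-beta ligands are secreted dimers that bring together type I and type II receptor kinases at the cell surface. BMP receptors phosphorylate SMAD1, SMAD5 and SMAD9, TGF-beta and activin receptors phosphorylate SMAD2 and SMAD3, and both sets enter the nucleus with SMAD4. Among the best known genes switched on by BMP are the ID genes and SMAD6. ID proteins are helix-loop-helix proteins without a DNA-binding basic region, which hold E proteins such as TCF3 and TCF4 away from DNA. They are known for keeping cells undifferentiated and dividing, and in epithelial cells TGF-beta is known to repress several of them.

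The targeted gene was checked first. MRPL35 read 6.49, 6.44 and 6.56 in KD replicates 1 to 3, against 8.16, 8.05 and 8.36 in NC replicates 1 to 3, by its brightest probe set (deposited log2 values). It was 3.23-fold lower in KD (limma, adjusted p = 4.68e-06), and all 4 of its probe sets fell. Arrays of a group correlated at 0.997 to 0.998 in KD and at 0.994 to 0.998 in NC (Pearson's r, over genes and not over independent samples). NC replicate 2 stood apart from the other arrays on the second principal component, which held 11.8% of the variance. The source name of NC replicates 2 and 3 differs from their other labels in the number of the cell line, and both were used as A549. Of 5 epithelial markers 4 were higher in KD (limma, adjusted p from 3.96e-05 to 0.00454). CDH1 (E-cadherin) was at 9.86 in KD and 8.56 in NC, a 2.47-fold higher level, KRT18 at 13.90 in KD and 13.40 in NC and KRT8 at 13.44 in KD and 13.00 in NC, while EPCAM, at 6.08 in KD and 5.87 in NC, did not pass. The log2 of the summed epithelial markers was 14.86 to 14.90 on KD arrays and 14.35 to 14.42 on NC arrays. The 13 leukocyte, fibroblast and endothelial markers ranged from PTPRC (2.47 in KD and 2.57 in NC) to CD68 (7.03 in KD and 6.88 in NC), with CD79A at 6.17 in KD and 6.28 in NC. Of these, 0 were higher and 1 was lower by limma, also at an unadjusted p under 0.05, the fibroblast marker PDGFRA (-0.37, adjusted p = 0.0457). Their log2 sums overlapped between the groups. KD arrays spanned 7.84 to 7.89 for leukocytes, 6.94 to 7.17 for fibroblasts and 7.05 to 7.15 for endothelium, and NC arrays spanned 7.73 to 8.0, 7.0 to 7.32 and 7.04 to 7.25 for the same lists. The part of these markers in the results that follow was not tested. The labels do not say whether the arrays of a group come from separate cultures, so the p-values here reflect the spread of these arrays alone, possibly a technical one, and 3 arrays a group limit the precision.

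Of the 10 genes, 7 passed the test by their brightest probe set (limma, adjusted p under 0.05 over 18244 genes). ID3 and SMAD3 were higher in KD, and ID1, ID2, ID4, CRIM1 and BAMBI were lower, while SMAD6, SMAD7 and BMP4 did not pass. The brightest probe set is that with the highest mean over all 6 arrays, and for SMAD3 and ID4 the choice matters. In NC alone, SMAD3 probe set 11718266_s_at, which fell, was brighter than 11718265_a_at, which rose (10.04 against 9.77). Likewise ID4 probe set 11721688_at was brighter in NC than 11721689_x_at (5.59 against 4.87). KD and NC arrays did not overlap for 8 of the 10, where this held for 44.7% of all genes. Over all genes 33.5% passed, 17.6% higher and 15.9% lower, and the median log2 change was -0.018, against -0.22 over the 10. The 10 were chosen with results of these data known, so their larger share is a description only. By probe set, 5 of the 27 were higher and 14 lower, where 16.5% and 14.1% of all probe sets were. KD and NC arrays did not overlap for 24 of the 27, where this held for 42.5% of all probe sets. An array reads RNA of the whole culture, so fewer cells that express a gene and less RNA in each cell cannot be told apart.

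**Figure D1:**
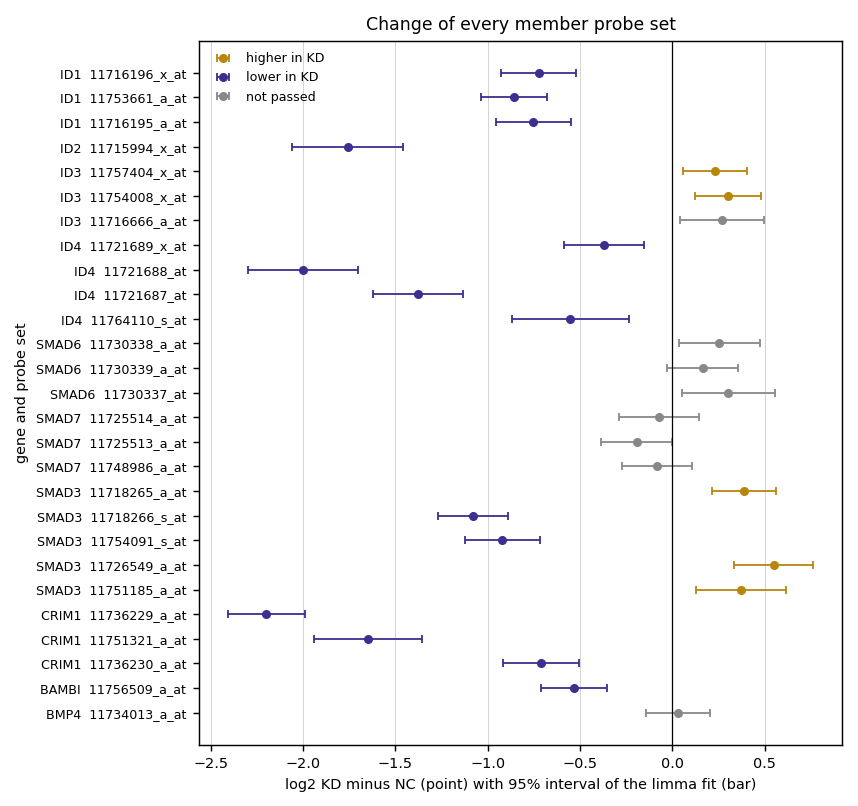
Log2 change, KD minus NC, of all 27 probe sets of the 10 genes (x axis, with the 95% interval of the limma fit), 1 row for each probe set. CRIM1, ID2 and a probe set of ID4 lie farthest to the left, and the 5 rows of SMAD3 fall on both sides of 0, with 3 higher and 2 lower.

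The ID family split. ID1, ID2 and ID4 fell in KD cells, while ID3 rose slightly in 2 of its 3 probe sets. In the fit over genes, ID3 lost its call in 9 of 15 alternatives. ID1 fell to between 55.2% and 60.6% of its NC level, ID2 by more than 3-fold, and ID4 by between 1.29-fold and 4.0-fold depending on the probe set. Changes are given from here as log2 KD minus NC ± standard error of the limma fit over all probe sets, with adjusted p over the same fit.

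The windows around the 4 ID gene starts are shown because these genes share a family and their best known regulators are SMAD proteins. RefSeq (GRCh38.p14) gives 1 window for each, from 250 bases before the start to 50 after it. They lie at chr20:31605039-31605338 (+) for ID1, chr2:8681806-8682105 (+) for ID2, chr1:23559452-23559751 (-) for ID3 and chr6:19837120-19837419 (+) for ID4, and are written 5′ to 3′ on the gene's strand. Capitals mark matches to the short SMAD-type motifs CAGAC and GGAGCC on either strand (GTCTG and GGCTCC on the other), and neither motif contains the other.
ID1: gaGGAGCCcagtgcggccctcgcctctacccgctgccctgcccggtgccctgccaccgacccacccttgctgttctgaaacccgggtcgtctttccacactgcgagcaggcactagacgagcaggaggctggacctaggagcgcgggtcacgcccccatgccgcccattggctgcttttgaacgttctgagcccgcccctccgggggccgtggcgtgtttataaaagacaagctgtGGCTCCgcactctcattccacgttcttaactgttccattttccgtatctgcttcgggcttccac
ID2: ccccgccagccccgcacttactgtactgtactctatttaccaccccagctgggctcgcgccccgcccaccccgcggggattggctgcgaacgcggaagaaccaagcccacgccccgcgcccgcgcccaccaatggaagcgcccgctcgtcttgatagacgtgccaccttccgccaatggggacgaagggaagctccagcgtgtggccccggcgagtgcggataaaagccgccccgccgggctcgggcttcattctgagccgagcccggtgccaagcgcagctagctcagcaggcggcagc
ID3: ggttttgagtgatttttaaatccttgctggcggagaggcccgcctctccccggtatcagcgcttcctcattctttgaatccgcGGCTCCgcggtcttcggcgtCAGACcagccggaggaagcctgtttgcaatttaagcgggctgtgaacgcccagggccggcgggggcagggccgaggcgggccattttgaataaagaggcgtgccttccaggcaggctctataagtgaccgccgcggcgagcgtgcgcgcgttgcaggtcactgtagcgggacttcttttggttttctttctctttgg
ID4: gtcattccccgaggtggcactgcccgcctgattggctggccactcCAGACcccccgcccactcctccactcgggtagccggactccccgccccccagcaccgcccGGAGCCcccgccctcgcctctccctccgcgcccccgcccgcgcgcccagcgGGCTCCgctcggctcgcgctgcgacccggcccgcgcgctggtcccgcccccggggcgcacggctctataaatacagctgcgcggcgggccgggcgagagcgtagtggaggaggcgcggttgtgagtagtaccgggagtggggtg

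CAGAC had 1 match in the ID3 window, 1 in that of ID4 and 0 in those of ID1 and ID2, and it is found in 45.3% of all 35116 windows of this length. GGAGCC had 2 matches in ID1, 1 in ID3, 2 in ID4 and 0 in ID2, and is found in 36% of all windows. The GC-rich motif GGCGCC, present in 19.2% of windows, was in none of these 4. The ID2 window held none of the motifs searched. Only these windows were searched, so sites farther from the gene starts are not covered, and a count of 0 does not mean that a gene lacks them. Whether the counts go with the changes in KD was not tested. A match is a string of letters and no evidence of binding, and the arrays hold no binding data.

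ID1 (3 probe sets) is the family member most often used as a readout of BMP signalling. Its brightest probe set, 11716196_x_at, read 11.05, 10.99 and 11.07 in KD, against 11.76, 11.64 and 11.88 in NC. The second, 11753661_a_at, read 10.50, 10.53 and 10.55 in KD, against 11.44, 11.34 and 11.37 in NC. The third, 11716195_a_at, read 9.49, 9.60 and 9.64 in KD, against 10.31, 10.24 and 10.44 in NC. Every KD array lay below every NC array in all 3. The changes were -0.72 ± 0.090, -0.86 ± 0.079 and -0.75 ± 0.090 in the same order, a 1.65-fold to 1.81-fold lower level (limma, adjusted p from 5.24e-05 to 0.000287). The change of the brightest against the second did not pass (0.13 ± 0.086, limma adjusted p = 0.453).

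ID2 has 1 probe set with a single symbol, 11715994_x_at, whose x suffix marks probes that can bind other transcripts. It read 7.03, 7.16 and 6.98 in KD, against 9.04, 8.52 and 8.88 in NC. The KD arrays were all lower by well over the spread of either group, and NC replicate 2 was the lowest of the NC arrays. ID2 changed by -1.76 ± 0.13, a 3.38-fold lower level (limma, adjusted p = 1.77e-05). A further probe set, 11746878_s_at, is annotated to ID2 and ID2B together and is not counted among the 27. It read 7.02, 7.05 and 7.05 in KD, against 8.79, 8.76 and 8.74 in NC, so NC replicate 2 was not apart there, and it was 3.30-fold lower (limma, adjusted p = 2.07e-06).

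ID3 went the other way by a small amount. Its brightest probe set, 11757404_x_at, read 12.05, 12.09 and 12.10 in KD, against 11.85, 11.84 and 11.86 in NC. The next, 11754008_x_at, read 11.54, 11.65 and 11.59 in KD, against 11.30, 11.26 and 11.32 in NC. The third, 11716666_a_at, read 11.54, 11.66 and 11.51 in KD, against 11.45, 11.14 and 11.31 in NC. KD arrays lay above NC arrays in all 3, with the narrowest gap in the third. The first probe set rose by 0.23 ± 0.077 (limma, adjusted p = 0.0494) and the second by 0.30 ± 0.080 (adjusted p = 0.0183), while the third, at 0.27 ± 0.10, did not pass (adjusted p = 0.0763). These are 1.17-fold to 1.23-fold differences. The 95% interval of the brightest, 0.056 to 0.40, did not overlap that of any ID1, ID2 or ID4 probe set. In the fit over genes the adjusted p of ID3 was 0.0363. It was 0.0752 without KD replicate 1, 0.122 without KD replicate 2, 0.133 without KD replicate 3, 0.0816 without NC replicate 1 and 0.0637 without NC replicate 3. With median centring it was 0.0705. Both probe sets that passed carry the x suffix, and with x and s suffixes left out the adjusted p was 0.0739. Over all alternatives it ran from 0.000274 with a variance trend and robust fitting to 0.885 by treat. The treat test asks for a log2 change beyond 0.2 and not for any change. The second probe set lost its call on omitting KD replicates 2 or 3 (0.0792 and 0.0630), and the third gained one on omitting NC replicate 1 (0.0443).

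ID4 is dim on these arrays and its probe sets differ in size of change. 11721688_at read 3.68, 3.50 and 3.60 in KD, against 5.62, 5.32 and 5.85 in NC. 11721687_at read 3.75, 3.93 and 4.02 in KD, against 5.19, 5.20 and 5.44 in NC. The brightest, 11721689_x_at, read 4.44, 4.41 and 4.67 in KD, against 4.81, 4.89 and 4.92 in NC. In each the KD arrays lay below the NC arrays, with gaps that differed several-fold. The first fell by 2.00 ± 0.13 on the log2 scale (4.0-fold lower, limma adjusted p = 8.44e-06) and the second by 1.37 ± 0.11 (2.59-fold lower, adjusted p = 2.18e-05). The x-suffix probe set fell by 0.37 ± 0.096 (1.29-fold lower, adjusted p = 0.0163). The dimmest, 11764110_s_at, changed by -0.55 ± 0.14 (adjusted p = 0.0141).

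Within arrays, the brightest ID4 probe set minus the second changed by 1.63 ± 0.15 between KD and NC (limma across 11825 genes with 2 or more probe sets, adjusted p = 0.00167), so these probe sets did not change alike. With quantile normalization it was 1.0, because 11721687_at took the place of 11721688_at as the second brightest. The changes of these probe sets themselves were then -1.37 and -1.99, close to those above. ID4 had no value with dim genes left out. This comparison was added after the probe sets had been seen to differ. Over all such genes 9.48% passed it, 4.75% with a higher and 4.73% with a lower difference in KD, and 3 of the 7 genes here with several probe sets did, ID4, SMAD3 and CRIM1. The call of the x-suffix probe set is lost on omitting KD replicates 1 or 2 (adjusted p = 0.0651 and 0.0709) or NC replicate 3 (0.0556). That of the dimmest is lost without KD replicate 3 (0.0606), NC replicate 1 (0.0532) or NC replicate 3 (0.0537). Those of both _at probe sets held without any array.

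**Figure D2:**
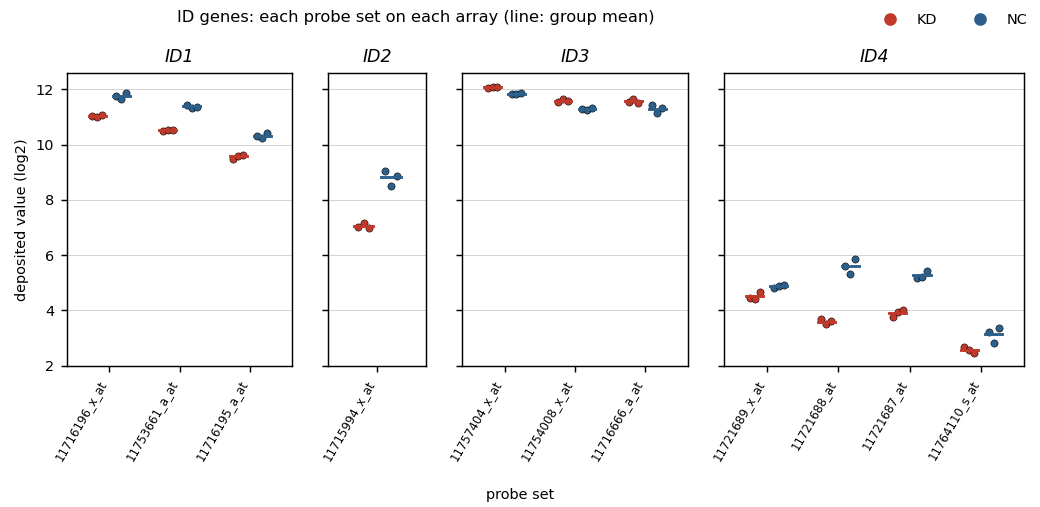
Deposited log2 values (y axis) of each ID probe set (x axis) on each array, KD left of NC, with a line at the group mean. KD points lie below NC points in every probe set of ID1, ID2 and ID4 and slightly above them in the 3 of ID3.

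The inhibitory SMADs are themselves induced by the pathway and damp it, and neither passed the test in any probe set. SMAD6, which acts chiefly against BMP receptors, read 9.76, 9.84 and 9.86 in KD, against 9.72, 9.42 and 9.57 in NC, by its brightest probe set 11730338_a_at. Probe set 11730339_a_at read 8.33, 8.19 and 8.29 in KD, against 8.02, 8.13 and 8.17 in NC, and 11730337_at read 6.70, 6.81 and 6.92 in KD, against 6.57, 6.65 and 6.30 in NC. All KD arrays lay above all NC arrays in the 3 probe sets, by narrow gaps. The changes were 0.25 ± 0.097, 0.16 ± 0.085 and 0.30 ± 0.11, and none passed (limma, adjusted p = 0.0833, 0.20 and 0.0728).

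The SMAD6 result sits close to the threshold. In the fit over genes the adjusted p was 0.0718, and it was 0.0350 without NC replicate 1, 0.0215 with the mean of its probe sets and 0.0143 with a variance trend and robust fitting, the lowest of a range up to 0.794. When a single array was left out, the highest was 0.203. The 95% interval of its brightest probe set ran from 0.033 to 0.47. Of the 17 RefSeq windows in the table, which come from 9 of the 10 genes (all but CRIM1), that of SMAD6 is the only 1 with the palindrome GTCTAGAC, a SMAD-binding motif found in 0.202% of all windows. It is shown for that reason, at chr15:66701986-66702285 (+), with capitals for GTCTAGAC and for its 3 matches to GGAGCC. Several motifs were searched in the 17 windows, and a match is no evidence of binding. Any part of this motif in the SMAD6 values was not tested.
SMAD6: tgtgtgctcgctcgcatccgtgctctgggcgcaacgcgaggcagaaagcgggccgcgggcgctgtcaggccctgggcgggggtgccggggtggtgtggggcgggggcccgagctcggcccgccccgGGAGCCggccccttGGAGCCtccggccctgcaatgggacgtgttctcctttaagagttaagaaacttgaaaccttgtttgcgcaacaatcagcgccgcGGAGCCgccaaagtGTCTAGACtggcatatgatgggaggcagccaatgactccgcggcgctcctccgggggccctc

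SMAD7, which acts against both BMP and TGF-beta receptors, read 7.72, 7.79 and 7.57 in KD, against 7.85, 7.65 and 7.80 in NC, by 11725514_a_at. The groups overlapped, and the change of -0.074 ± 0.096 did not pass (limma, adjusted p = 0.643, 95% interval -0.29 to 0.14). 11725513_a_at read 5.70, 5.58 and 5.72 in KD, against 5.80, 5.93 and 5.85 in NC, without overlap, at -0.19 ± 0.084 (adjusted p = 0.124). 11748986_a_at read 5.54, 5.36 and 5.42 in KD, against 5.53 on each NC array, at -0.085 ± 0.084 (adjusted p = 0.528). The identical NC values are as deposited, and 7 probe sets in all share 1 value across the NC arrays. The RefSeq table lists 3 start windows for SMAD7 and none holds GTCTAGAC.

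SMAD3, the signal carrier of TGF-beta and activin, gave opposite answers by probe set. 3 of its probe sets were higher in KD and 2 were lower, and all 5 passed. The brightest, 11718265_a_at, read 10.15, 10.18 and 10.14 in KD, against 9.77, 9.75 and 9.79 in NC. It rose by 0.39 ± 0.076 (1.31-fold higher, limma adjusted p = 0.00396). The second, 11718266_s_at, read 9.02, 8.91 and 8.94 in KD, against 9.98, 10.02 and 10.12 in NC. It fell by 1.08 ± 0.084 (2.12-fold lower, adjusted p = 2.05e-05). KD and NC arrays did not overlap in either.

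The other SMAD3 probe sets fell on both sides too. 11754091_s_at read 6.71, 6.87 and 6.94 in KD, against 7.70, 7.78 and 7.80 in NC, and fell by 0.92 ± 0.090 (limma, adjusted p = 7.36e-05). 11726549_a_at read 7.52, 7.52 and 7.65 in KD, against 7.09, 6.87 and 7.08 in NC, and rose by 0.55 ± 0.094 (adjusted p = 0.00186). 11751185_a_at read 7.12, 6.94 and 6.90 in KD, against 6.44, 6.77 and 6.63 in NC, and rose by 0.37 ± 0.11 (adjusted p = 0.0276). This last call is lost on leaving out any of KD replicates 1, 2 and 3 (adjusted p = 0.106, 0.0578 and 0.0506) or NC replicates 1 and 3 (0.0952 and 0.0661). Both probe sets that fell carry the s suffix, which marks probes shared between transcripts that can belong to several genes, and the 3 that rose carry the a suffix, which marks alternative transcripts of 1 gene.

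Within each array, the brightest SMAD3 probe set minus the second was 1.13, 1.26 and 1.21 in KD, against -0.21, -0.27 and -0.33 in NC. The KD values were all above the NC values, and only the change of this difference can be read, since the sign of a difference between probe sets has no meaning of its own. The change of 1.47 ± 0.077 passed (limma across 11825 genes, adjusted p = 0.000337). Brightest and second brightest probe sets were called in opposite directions for 0.609% of the 11825 genes with 2 or more, and SMAD3 was the only such gene of the 7 here. With the mean of the 5 probe sets the gene changed by -0.14 and did not pass (adjusted p = 0.146), so SMAD3 as a whole has no settled direction here. RefSeq lists 5 start windows for SMAD3, and which transcript each probe set reads was not tested.

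**Figure D3:**
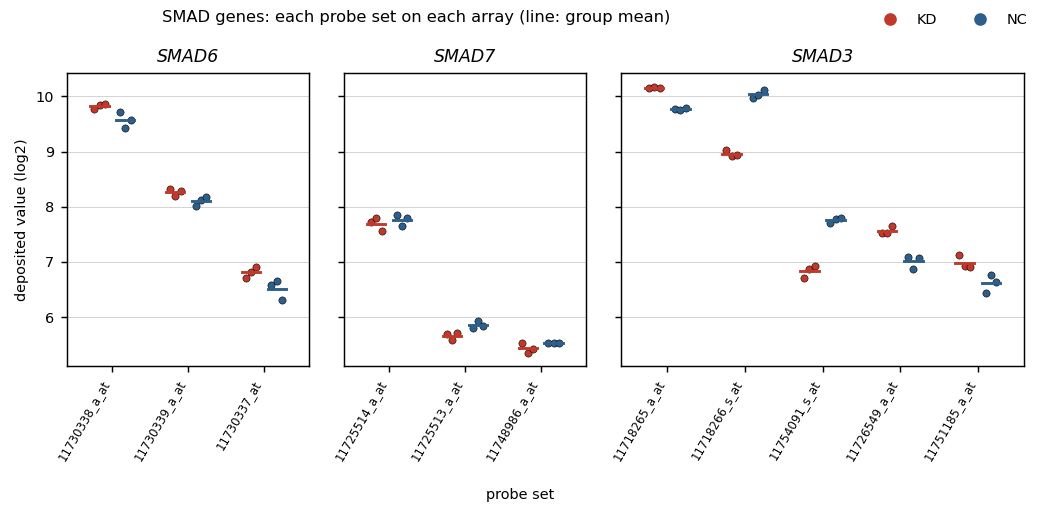
Deposited log2 values (y axis) of each SMAD6, SMAD7 and SMAD3 probe set (x axis) on each array, KD left of NC, with a line at the group mean. SMAD6 and SMAD7 group means differ by at most 0.30, while SMAD3 has 3 probe sets with KD above NC and 2 with KD below.

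The membrane proteins CRIM1 and BAMBI fell. CRIM1, a transmembrane protein with cysteine-rich repeats that binds BMPs, had the largest change of the 10 genes by brightest probe set. With the mean of its probe sets it was at -1.52, a smaller fall than that of ID2. Its brightest probe set, 11736229_a_at, read 7.73, 7.49 and 7.54 in KD, against 9.82, 9.75 and 9.78 in NC. 11751321_a_at read 5.32, 4.81 and 5.09 in KD, against 6.83, 6.67 and 6.66 in NC. 11736230_a_at read 4.82, 4.97 and 4.99 in KD, against 5.58, 5.74 and 5.58 in NC. All KD arrays lay below all NC arrays in the 3. The brightest fell by 2.20 ± 0.091 on the log2 scale, which is 4.59-fold lower (limma, adjusted p = 1.91e-06). The other 2 changed by -1.65 ± 0.13 (adjusted p = 2.18e-05) and -0.71 ± 0.091 (adjusted p = 0.000330). The brightest fell by more than the second, with a within-array change of -0.55 ± 0.097 (limma, adjusted p = 0.0165), a call lost on omitting KD replicates 1 or 3 (0.0594 and 0.0716) or NC replicate 3 (0.0583).

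BAMBI, a receptor-like protein without a kinase domain that blocks receptor signalling, read 8.24, 8.32 and 8.35 in KD, against 8.86, 8.81 and 8.84 in NC, by its 1 probe set 11756509_a_at. The groups did not overlap. It fell by 0.53 ± 0.079 on the log2 scale, 1.45-fold lower (limma, adjusted p = 0.000807), and kept its call without any 1 array.

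BMP4, the ligand of the set, showed no detectable difference. It read 8.48, 8.55 and 8.52 in KD, against 8.47, 8.52 and 8.47 in NC, by 11734013_a_at. The groups overlapped, and the change of 0.029 ± 0.077 did not pass (limma, adjusted p = 0.834). Its 95% interval, -0.15 to 0.20, leaves room for a change of up to that size on these arrays.

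**Figure D4:**
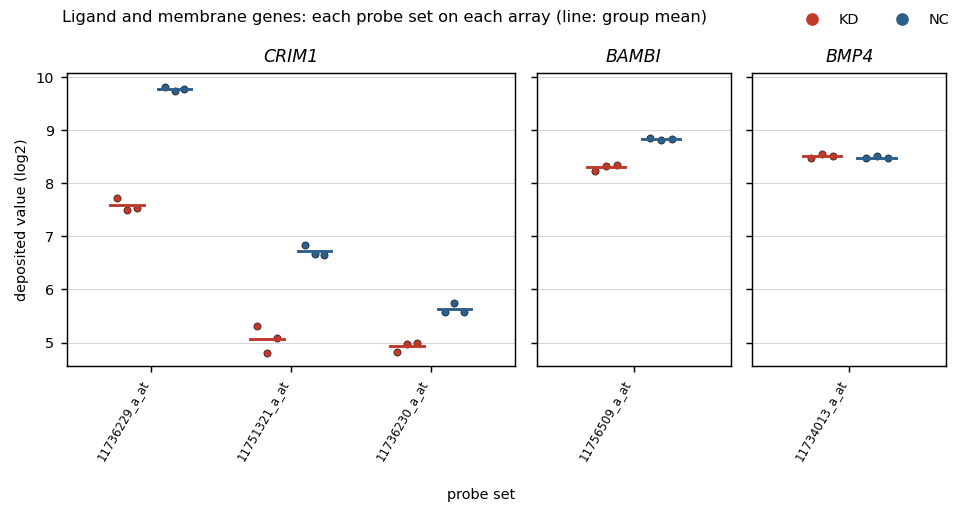
Deposited log2 values (y axis) of each CRIM1, BAMBI and BMP4 probe set (x axis) on each array, KD left of NC, with a line at the group mean. KD lies below NC in every CRIM1 probe set and in BAMBI, and the BMP4 groups overlap.

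Other genes of the pathway were followed by role, through the brightest probe set of each. Of 122 distinct genes measured, 24 were higher and 21 lower in KD, 36.9% in all against 33.5% of all genes (limma, adjusted p over 18244 genes). Their median change was -0.045. The values that follow are log2 changes with standard errors from that fit, n = 3 arrays a group.

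Among 31 ligand genes 2 rose, 2 fell and 27 did not pass. GDF15, a stress-induced member of the family, averaged 11.10 ± 0.071 in KD and 10.44 ± 0.051 in NC (SD) and rose by 0.66 ± 0.079, in 3 of its 5 probe sets. AMH fell by 0.62 ± 0.11 on the log2 scale, in all 3 of its probe sets. TGFB1 was at 0.45 ± 0.12, a call lost on omitting KD replicates 1 or 3 (limma adjusted p = 0.0551 and 0.0767) or NC replicate 1 (0.0721). LEFTY2, which is dim and passed in 0 of its 3 probe sets in the fit over probe sets, was at -0.36 ± 0.12 (adjusted p = 0.0494) and lost its call on omitting KD replicates 2 or 3 (0.164 and 0.145) or NC replicates 2 or 3 (0.0879 and 0.0857). With the mean of its probe sets LEFTY2 was at -0.10 (adjusted p = 0.488). Omitting KD replicate 1 or 3, or NC replicate 1, left 1 rise, and omitting NC replicate 2 gave 4. Omitting KD replicate 2 or 3 left 1 fall.

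Of 16 receptors and coreceptors 5 rose, 2 fell and 9 missed the threshold. The median change was 0.094. TGFBR2, the type II receptor for TGF-beta, averaged 11.32 ± 0.026 in KD and 10.37 ± 0.11 in NC (SD) and rose by 0.96 ± 0.083, a 1.94-fold higher level (limma, adjusted p = 3.59e-05). BMPR2, its counterpart for BMPs, rose by 0.52 ± 0.10 and the coreceptor TGFBR3 by 0.52 ± 0.083. TGFBR1 (0.47 ± 0.11) and ACVR1 (0.39 ± 0.11), named here after their values were seen, complete the rises. BMPR1B, a type I BMP receptor, fell by 0.68 ± 0.10 on the log2 scale, and the coreceptor RGMB, also named after its value was seen, by 0.39 ± 0.11. With x and s suffixes left out 3 rose and BMPR1B was at -0.33 (adjusted p = 0.0321). Leaving out KD replicate 1 or 2, or NC replicate 1 or 3, left 1 fall.

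Of the 5 other SMAD genes, SMAD1 (-0.56 ± 0.13, adjusted p = 0.00805 by limma) and SMAD5 (-0.46 ± 0.11, adjusted p = 0.00831) fell and 3 did not pass. Both belong to the BMP branch, but SMAD9 of the same branch did not fall. It was at 0.27 ± 0.11 (limma, adjusted p = 0.0956), and is named here after its value was seen. Both probe sets of SMAD1 fell and 2 of the 5 of SMAD5, which lost its call with the mean of its probe sets (-0.31, adjusted p = 0.0641) and with x and s suffixes left out (-0.25, adjusted p = 0.215). Without NC replicate 2, 1 of the 5 was called higher.

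Intracellular regulators moved both ways: 7 of 18 rose and 3 fell. The ubiquitin ligases WWP1 (1.10 ± 0.10), SMURF2 (1.0 ± 0.12) and STUB1 (0.90 ± 0.11), all known to act on SMADs or receptors, rose (limma, adjusted p from 5.57e-05 to 0.000190). SMURF2 averaged 8.67 ± 0.077 in KD and 7.67 ± 0.22 in NC (SD), and 2 of its 3 probe sets rose. PMEPA1, a TGF-beta target that holds SMAD2 and SMAD3 back, fell by 0.72 ± 0.075 on the log2 scale, with 1 of its 3 probe sets passing. With the mean of the probe sets SMURF2 was at 0.61 and PMEPA1 at -0.30.

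Among 22 extracellular antagonists and latency proteins 3 rose and 3 fell. LTBP1, which anchors latent TGF-beta in the matrix, averaged 8.02 ± 0.049 in KD and 6.75 ± 0.090 in NC (SD) and rose by 1.27 ± 0.081, in all 5 of its probe sets. TWSG1, a BMP-binding protein, fell by 1.62 ± 0.23 on the log2 scale, with an SD of 0.082 among the KD arrays and 0.55 among the NC arrays. Of its 3 probe sets 2 were lower and 1 did not pass, with changes from -1.62 to -0.30. LTBP2 (0.77 ± 0.097) and the activin-binding FSTL3 (-0.90 ± 0.081) were called, but each has probe sets called in both directions, 1 higher and 1 lower for LTBP2 and 1 higher and 2 lower for FSTL3. With the mean of the probe sets LTBP2 was at 0.24 (adjusted p = 0.0612) and FSTL3 at -0.42, and 5 genes of the list fell. Without NC replicate 3, 5 rose.

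Of 21 known TGF-beta targets measured, 6 rose, 9 fell and 6 missed the threshold, so 71.4% were called where 33.5% of all genes were. The list was chosen with results of these data known and the difference was not tested. The median change was -0.10. HMGA2, a chromatin protein of mesenchymal transition, fell by 1.41 ± 0.11 on the log2 scale, though the other 5 of its 6 probe sets did not pass and their mean with it was at -0.24. TGFBI, an adhesion protein, averaged 10.98 ± 0.079 in KD and 12.19 ± 0.056 in NC (SD) and fell by 1.21 ± 0.080 (limma, adjusted p = 8.90e-06), in all 4 probe sets. SNAI2, a repressor of epithelial genes, fell by 1.18 ± 0.11 on the log2 scale, by its 1 probe set. SNAI2 is dim, at 3.79 in KD and 4.97 in NC where the median of all gene means was 6.21. It had no value with dim genes left out. CDKN1A, which encodes the CDK inhibitor p21 and is also a p53 target, rose by 1.04 ± 0.081. LTBP2 and PMEPA1 stand in this list as well as above.

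Of 11 BMP targets outside the 10 genes, 2 rose, 0 fell and 9 did not pass. The share called, 18.2%, all of it higher, stands beside 17.6% called higher over all genes. The homeobox genes MSX2 (0.44 ± 0.091, adjusted p = 0.00483 by limma) and MSX1 (0.33 ± 0.080, adjusted p = 0.0110) rose. MSX2 rose in 1 of 2 probe sets and lost its call with x and s suffixes left out (0.16, adjusted p = 0.187), and MSX1 lost its call without KD replicate 3 (adjusted p = 0.0596), which left 1 rise. Of the 3 E protein genes whose products ID proteins bind, TCF4 fell (-0.53 ± 0.11, limma adjusted p = 0.00405), in 10 of its 11 probe sets (-0.98 with x and s suffixes left out), and TCF3 and TCF12 did not pass. Without NC replicate 2 all 3 were called lower.

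**Figure D5:**
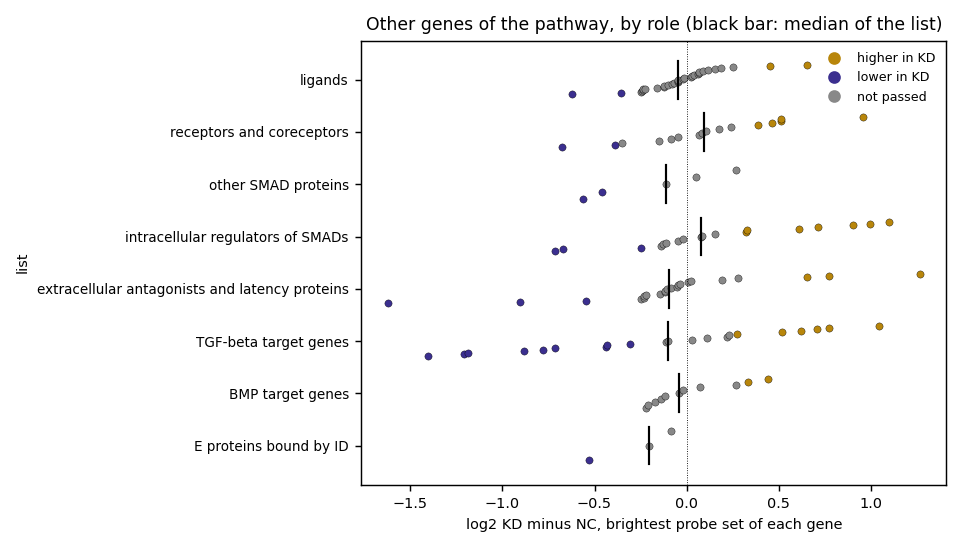
Log2 change, KD minus NC (x axis), of other genes of the pathway in rows by role, 1 point for each gene and a black bar at the median of the list. Points lie on both sides of 0 in most rows, and the medians lie between -0.21 (E proteins) and 0.094 (receptors).

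Genes with the most similar profiles were found by Euclidean distance over the 6 arrays, after the NC mean of each gene was subtracted. For CRIM1, the lowest change of the 10 by brightest probe set, the nearest were PIMREG (distance 0.0987), HMGN4 (0.10) and DDIAS (0.125). Their log2 changes were -2.19, -2.21 and -2.23. For the brightest SMAD3 probe set, the highest change, they were NADK (0.0481), SEC11A (0.050) and CLIC2 (0.0520), with changes of 0.40, 0.39 and 0.38. CLIC2 is dim, with an NC mean of 2.91 where the median of all gene means was 6.21.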

How the data were processed

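The authors deposited 1 table of log2 values for 49395 Affymetrix probe sets on 6 arrays, with the log base inferred from their range. Summarisation and normalization are not given in the sources used here. How far they compress fold changes is unknown. Per the labels' protocols, Trizol RNA was made into biotin-labelled cRNA. Arrays were grouped by title. The platform annotation named 45278 probe sets with 1 symbol. The brightest such probe set stood for each of 18244 genes, with no filter on level.

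Values were fitted with lmFit and eBayes of limma 3.58.1 (R 4.3.3; two-sided, group only, 4 residual and 4.67 prior degrees of freedom), over genes and over 49293 probe sets. P-values were Benjamini-Hochberg adjusted over each whole table, at 0.05. The steps were tested on simulated data. The within-array difference of a gene's brightest and second brightest probe sets was added after the data were seen. Promoter windows came from RefSeq (GRCh38.p14), and protein sequences were not used here. Figures used matplotlib 3.10.9. The members, lists and rule for named genes were chosen with earlier results of these data known. The rule took all 10 members, MRPL35, up to 4 called and non-overlapping genes of each list with the largest changes, and the 3 nearest profiles. Alternatives were quantile normalization, median centring, variance trend with robust fitting, array weights, a replicate block, averaging probe sets of a gene, omission of x and s suffixes, leaving out genes below the 40th percentile, a treat test against 0.2, and leaving out each array.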

Additional observations from a re-analysis of the deposited data

How the results depend on the processing

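The falls of ID1, ID2, CRIM1 and BAMBI kept their direction and call under every alternative that measured them (ID2 has no value without x and s suffixes). The count of the 10 genes called higher, 2, was 3 with quantile normalization, with trend and robust fitting and with dim genes left out, 1 with median centring, 1 with the replicate block, 1 with x and s suffixes left out and 0 with the treat test against 0.2 (0 by treat, against 2 by limma without it), and between 1 and 2 when an array was left out: 1 without any 1 of the KD arrays or without NC replicate 3. The number of their probe sets called higher, 5, was 7 with trend and robust fitting and with dim genes left out, 1 by treat and between 2 and 5 when an array was left out: 3 without KD replicate 1 or NC replicate 3 and 2 without KD replicate 2 or 3. By treat, 1931 genes were called higher and 1826 lower over all genes, against 3207 and 2903, and 15 pathway genes higher, against 24. ID4, -0.37 by its brightest probe set, was -1.07 with the mean of its probe sets and -2.00 with x and s suffixes left out. SMAD3 turned from 0.39 to -0.14 with the mean of its probe sets. With x and s suffixes left out, other probe sets become the brightest and second brightest, and the within-array change became -0.10 for ID1, -0.63 for ID4 and -0.16 for SMAD3.

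Same-numbered KD and NC arrays deviated together for numbers 1 (r = 0.254) and 2 (r = 0.265) but not 3 (r = -0.0963, across genes), and KD replicate 1 correlated better with NC replicate 3 (0.286) than with its own number. Deviations from a group mean depend on one another, so these correlations cannot decide whether same-numbered arrays are pairs. The replicate block gave 3262 genes higher and 3014 lower. It took ID3 to an adjusted p of 0.0605 and LEFTY2 to 0.0657. No background measure was used here, so dim values such as those of ID4 stand as deposited.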
